A study of Mus musculus with 3 samples.

Results

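The genes described here are the 39 protein-coding genes of the 4 mouse Hox clusters, Hoxa, Hoxb, Hoxc and Hoxd. They were taken by symbol (Hox, a cluster letter and a paralog number) from the 32285 genes counted in single cells of the embryonic soft palate at E14.5. The tissue was the posterior part of the palatal region of C57BL/6 embryos. The genotypes sampled were 2 control libraries and 1 mutant library from Osr2-Cre;Alk5fl/fl embryos. The study's figure legends give the controls as Tgfbr1fl/fl or Tgfbr1fl/+ littermates, so that the controls also carry at least 1 floxed allele. In the mutant, Cre under the Osr2 locus deletes the TGF-β type I receptor gene Tgfbr1 (older symbol Alk5) in palatal mesenchyme. How many embryos were pooled in a library, and whether the controls came from separate litters, is not given in the sources used here.

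Hox genes encode homeodomain transcription factors. They are laid out along each cluster in the order of their paralog numbers, and genes of low number are expressed further forward in the embryo than genes of high number. The neural crest of the first pharyngeal arch, which builds the jaws and most of the palate, is known to form without Hox expression, whereas crest of the second arch carries Hoxa2 and Hoxb2 and crest of the third arch carries the group 3 genes as well. Hox proteins bind DNA together with cofactors of the Pbx and Meis families, and retinoic acid and Polycomb complexes are known regulators of the clusters. The question put to the counts was which cell types of the soft palate lacked Hox transcripts, which carried them, and which of the 39 genes they carried.

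All 39 genes were located in the GRCm38 build with the GENCODE annotation. The Hoxa genes lie on chromosome 6 between positions 52155590 and 52260880, the Hoxb genes on chromosome 11 between 96194316 and 96368256, the Hoxc genes on chromosome 15 between 102921103 and 103036852, and the Hoxd genes on chromosome 2 between 74668310 and 74765142. Exons of Hoxd3 and Hoxd4 overlap on the same strand, as do those of Hoxc5 and Hoxc10, so the split of counts within these pairs is uncertain.

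Stretches of 250 bases upstream of a RefSeq transcription start are shown for 3 genes because Hoxd8 and Hoxd4 were among the 3 genes called higher in endothelial-like cells and Hoxa2 had the most UMIs in mesenchymal-like cells. They come from the plus strand of chr2:74704365-74704614 (Hoxd8), the plus strand of chr2:74721728-74721977 (Hoxd4) and the minus strand of chr6:52164832-52165081 (Hoxa2) of GRCm38.p6, written 5′ to 3′ and ending at the base before the start. None of the 3 overlaps an exon of the GENCODE annotation. Capitals mark matches, on either strand, to 3 short motifs. The letters AGGTCA are those of a nuclear receptor binding half-site, the letters TATAAA those of the TATA box, and the letters TGATNNAT a short form of the composite site of Pbx and Hox proteins. In the Hoxd8 stretch the nuclear receptor motif is marked as AGGTCA. In the Hoxd4 stretch the same motif is marked as read on the other strand (TGACCT), and so is the TATA box (TTTATA). In the Hoxa2 stretch the composite motif is marked as read on the other strand (ATCAATCA).
Hoxd8: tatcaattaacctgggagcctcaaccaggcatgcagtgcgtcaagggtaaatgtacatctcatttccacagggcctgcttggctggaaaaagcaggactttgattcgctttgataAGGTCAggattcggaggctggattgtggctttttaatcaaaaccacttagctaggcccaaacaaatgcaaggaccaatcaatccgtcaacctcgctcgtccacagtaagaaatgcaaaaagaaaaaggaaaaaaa
Hoxd4: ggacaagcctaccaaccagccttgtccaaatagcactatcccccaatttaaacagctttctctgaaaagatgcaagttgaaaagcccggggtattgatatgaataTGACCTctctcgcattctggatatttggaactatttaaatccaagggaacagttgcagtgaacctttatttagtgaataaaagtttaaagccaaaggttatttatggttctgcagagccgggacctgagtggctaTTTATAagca
Hoxa2: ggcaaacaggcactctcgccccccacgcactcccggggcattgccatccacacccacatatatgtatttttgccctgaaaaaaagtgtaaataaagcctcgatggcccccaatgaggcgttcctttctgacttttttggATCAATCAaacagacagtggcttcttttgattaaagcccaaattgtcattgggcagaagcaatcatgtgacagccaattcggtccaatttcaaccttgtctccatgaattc

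Upstream windows were found for 22 of the 39 genes, 24 windows in all. AGGTCA was present in 6 of these 24 windows and in 14.02% of the 32851 mouse windows of the same length. TATAAA was present in 4 Hox windows and in 12.4% of all windows, and TGATNNAT in 4 Hox windows and 7.68% of all windows. A match to these letters is a description and does not mark a bound site. The Hox windows were rich in CG, with a median of 12.5 CG dinucleotides against 6 over all windows. The 3 stretches shown were not, with 6 (Hoxd8), 3 (Hoxd4) and 6 (Hoxa2).

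The counts are unique molecular identifiers (UMIs), each standing for 1 captured transcript 3′ end, so that levels were not divided by gene length. A cell was used if it showed 500 or more genes and no more than 10% of UMIs from mitochondrial genes (2117 cells in control 1, 3821 in control 2, 8111 in the mutant). Median depth was 8238, 5286 and 5272 UMIs per kept cell. Cell classes were rebuilt by gates: a cell was called endothelial-like, epithelial-like and so on when it had a UMI of at least 3 of the 6 or 7 defining genes of that type, and mesenchymal-like when it passed no such gate and had at least 2 of 8 mesenchymal genes. No Hox gene was in any gate. Levels are counts per 1000000 UMIs (CPM) of the summed cells of a class in 1 library, and their 95% intervals, like those of shares, cover counting error only. The 3′ tags of Tgfbr1 need not lie in the deleted exon, and its level in mesenchymal-like cells (54.7 and 61.3 CPM in the controls, 49.1 CPM in the mutant) does not check the genotype.

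Control 1 stood apart from the other libraries in the members themselves. It carried 555 Hox UMIs in kept cells (25.5 CPM), control 2 carried 136 (5.03 CPM) and the mutant carried 275 (4.44 CPM). Summed over all kept cells, control 1 exceeded control 2 by 5.07-fold, a wider distance than that between control 2 and the mutant. This did not hold in mesenchymal-like cells alone, at 20.6, 3.33 and 0.521 CPM. There control 2 lay at least as far from the mutant as from control 1, in fold. Control 1 was also the library with the deepest cells and with a group of 65 granulocytic-like cells, a class without a cell in the other libraries. With 1 mutant library the genotypes could not be tested, and every result below is given by library. Between 52 and 83 barcodes of each library also occurred in another library.

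Of the 39 genes, 18 had no UMI in any kept cell, 9 had between 1 and 19, and 12 had at least 20. The genes described here are Hoxa2, Hoxa3, Hoxb2, Hoxb3, Hoxb4, Hoxc4, Hoxd1, Hoxd3, Hoxd4, Hoxd8 and Hoxd9, and together they held 893 of the 966 Hox UMIs. By cluster the UMIs numbered 319 for Hoxa, 233 for Hoxb, 37 for Hoxc and 377 for Hoxd. Genes of paralog groups 1 to 4 held 807 UMIs, groups 5 to 8 held 105 and groups 9 to 13 held 54. The anterior genes of the clusters therefore carried most of the signal, and the genes with no UMI were the members of groups 6 to 13 other than Hoxa7, Hoxc8, Hoxc13, Hoxd8, Hoxd9 and Hoxd10. Hoxa2 had 133, 41 and 10 UMIs in control 1, control 2 and the mutant, Hoxb2 had 120, 22 and 25, and Hoxd1 had 9, 1 and 121. Hoxa2 and Hoxb2 thus came mostly from control 1 and Hoxd1 mostly from the mutant.

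The clusters were spread unevenly over the libraries. Control 1 held 243 Hoxa UMIs, control 2 held 58 and the mutant 18 (11.2, 2.14 and 0.291 CPM), whereas Hoxd UMIs numbered 119, 48 and 210 (5.46, 1.77 and 3.39 CPM). Per UMI sequenced both clusters were highest in control 1, and the mutant lay below control 2 for Hoxa and above it for Hoxd. These sums also depend on the mix of cells. Neuronal-like cells held 102 of the 210 Hoxd UMIs of the mutant. They were 358 of 8111 kept cells in the mutant but 14 of 3821 in control 2. The part of the cell mix in the order of the libraries was not tested. Over all cells, mesenchymal-like cells held 35.3% of the Hox UMIs, neuronal-like cells 14.8%, endothelial-like cells 12.3%, epithelial-like cells 9.94% and myogenic-like cells 7.97%. Per UMI sequenced the order was different, because mesenchymal-like cells were 8733 of the kept cells and neuronal-like cells only 384.

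**Figure D1:**
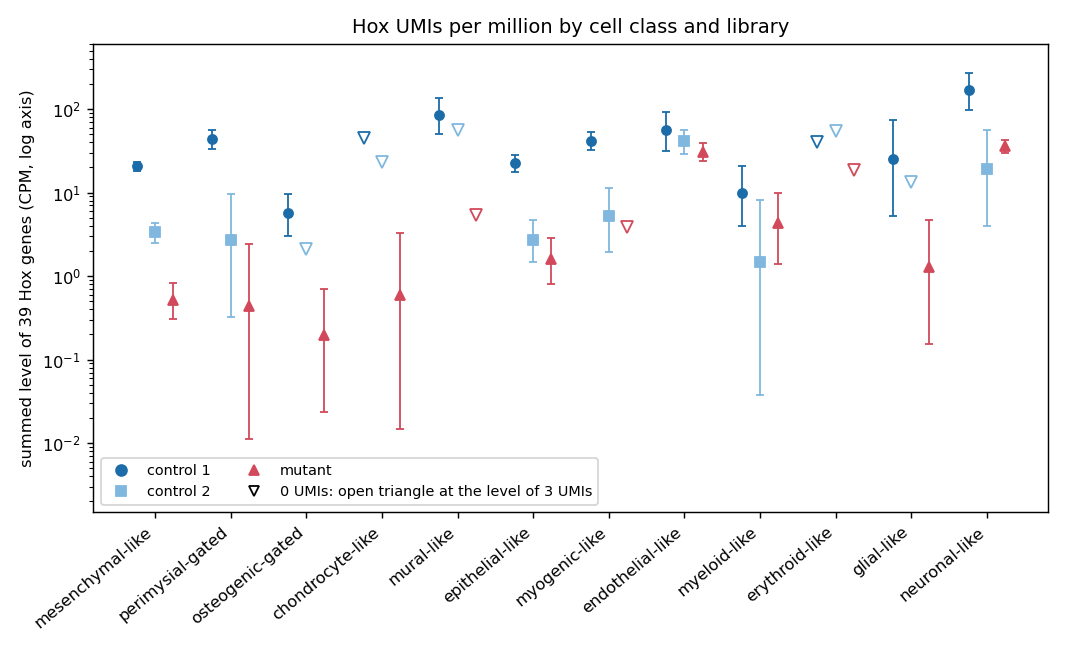
Summed level of the 39 Hox genes (CPM, log axis) for each marker-gated cell class in control 1, control 2 and the mutant, with exact Poisson 95% intervals for counting error; an open triangle stands at the level of 3 UMIs where a class had none. Endothelial-like cells lie between 30.8 and 56.5 CPM in all 3 libraries, and mesenchymal-like cells run from 0.521 to 20.6 CPM.

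Mesenchymal-like cells, the palatal connective tissue and its skeletal derivatives, were nearly Hox-negative in the mutant, low in control 2 and clearly Hox-positive in a minority of cells in control 1. The summed level was 20.6 CPM (95% interval 18.2 to 23.2) in control 1, from 270 UMIs in 1428 cells. It was 3.33 CPM (2.49 to 4.35) in control 2, from 53 UMIs in 2506 cells. In the mutant it was 0.521 CPM (0.308 to 0.823), from 18 UMIs in 4799 cells. None of these intervals overlapped. A Hox UMI was found in 12.6% of the mesenchymal-like cells of control 1, in 1.64% of those of control 2 and in 0.250% of those of the mutant. Because cells of control 1 were deeper, the cells were also thinned to 2000 UMIs each, which gave 3.60%, 0.712% and 0.108%. The order of the libraries was the same after thinning.

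The Hox genes found in the mesenchyme were mainly those known from the second and the third arch. Hoxa2, which specifies second arch crest, had 96 UMIs in control 1 but 33 in control 2 and 4 in mutant cells (7.32, 2.07 and 0.116 CPM). Hoxb2, its paralog in the Hoxb cluster, had 69, 7 and 3 UMIs (5.26, 0.439 and 0.0868 CPM). Hoxa3, a gene of the third arch and of thymus and throat cartilage development, had 50, 8 and 0 UMIs (3.81, 0.502 and 0 CPM). All 3 genes had the same order of libraries. Together they made up 79.6% of the mesenchymal Hox UMIs of control 1, 90.6% of those of control 2 and 38.9% of the 18 UMIs of the mutant. Further genes were sparse. Hoxb3 had 14 UMIs, all of them in control 1, and Hoxa5 had 9 in control 1 and 1 in control 2. The posterior-most gene found in mesenchymal-like cells was Hoxc13, with 1 UMI in control 2.

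Free RNA in the suspension can give UMIs to cells that do not express a gene, and classes outside the neural crest served as its measure. Hoxa2 was found in 5.88% of the mesenchymal-like cells of control 1, at a median depth of 8000.5 UMIs. It was found in 1 of 100 myogenic-like cells of the same library, at a median depth of 16370.5, and the difference between the classes passed the test over the 3 libraries (log2 difference −3.58 ± 1.20 SE, adjusted p = 0.0112, edgeR quasi-likelihood test with library as a block). That call held in 4 of the 10 alternatives run, and it was lost without control 1 (adjusted p = 0.439, edgeR), without control 2 (adjusted p = 0.0721, edgeR) and by DESeq2 (adjusted p = 0.256). Control 1 epithelial-like cells had Hoxa2 in 7.10% of 183 cells at a median depth of 14154. Their level of 4.70 CPM had an interval (2.63 to 7.76) that included the 7.32 CPM of the mesenchyme. The difference over the 3 libraries was not called (−1.47 ± 0.64, adjusted p = 0.128, edgeR), and 1 of the 10 alternatives called it. Control 1 myeloid-like cells had Hoxa2 in 2 of 49 cells (4.08%) at a median depth of 12029, and there the difference from the mesenchyme was within the error (−1.62 ± 1.06, adjusted p = 0.299, edgeR). The level in myeloid-like cells, 2.85 CPM with an interval from 0.345 to 10.3, is too imprecise to be set apart from either class. Barx1, a homeobox gene of the palatal mesenchyme, stood at 343, 369.7 and 299 CPM in mesenchymal-like cells of the 3 libraries, at 148, 26.4 and 96.5 CPM in myeloid-like cells and at 67.0, 38.3 and 22.01 CPM in myogenic-like cells. This mesenchymal transcript was thus found in both other classes, most of all in control 1, and the low Hoxa2 levels there cannot be told apart from this background.

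Detected Hox genes tended to lie in the same mesenchymal cells. In control 1, Hoxb2 was found in 25.0% of the 84 cells with Hoxa2 and in 2.53% of the 1344 cells without it. Hoxa3 was found in 14.3% and 1.86% of the same cells. In control 2 the counts were small, with Hoxb2 in 1 of 29 cells with Hoxa2 and in 5 of 2477 without it. Of the 180 Hox-positive mesenchymal-like cells of control 1, 136 had UMIs of 1 Hox gene, 39 of 2 genes and 5 of 3 or more. The median depth of cells with and without a Hox UMI was alike in control 1 (8059.5 and 7994 UMIs) and control 2 (5435 and 5261), but in the mutant the 12 positive cells were deeper (9478 and 5511).

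Within the mesenchyme, perimysial-gated cells (a UMI of both Hic1 and Ebf2, genes of the connective tissue around the palatal muscles) were set beside all other mesenchymal-like cells. In control 1 their summed Hox level was 43.5 CPM, from 62 UMIs in 134 cells, against 17.8 CPM in the others. In control 2 it was 2.66 CPM, from 2 UMIs in 81 cells, against 3.36 CPM, and in the mutant 0.440 CPM, from 1 UMI in 166 cells, against 0.526 CPM. Perimysial-gated cells were therefore 2.45-fold higher in control 1 alone (95% interval 1.81 to 3.26), and the ratios of 0.793 and 0.836 in the other libraries rested on 2 UMIs and 1 UMI. Hoxa2 stood at 19.0, 2.66 and 0 CPM in perimysial-gated cells and at 5.91, 2.04 and 0.124 CPM in the rest. None of the 6 Hox genes tested was called higher in perimysial-gated cells at an adjusted p under 0.05, 2 passed unadjusted and DESeq2 called 0, beside 1.42% of all 16527 genes called higher. Hoxa2 had a log2 difference of 1.27 ± 0.45 (adjusted p = 0.109, edgeR) and Hoxb2 of 1.21 ± 0.58 (adjusted p = 0.349, edgeR). Without control 1 the Hoxa2 difference was 0.02, and without the mutant it was 1.37 with an adjusted p of 0.0237 in the edgeR test.

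In control 1, osteogenic-gated cells (a UMI of Sp7, a factor of bone-forming cells) had less Hox signal than the mesenchyme as a whole. Their summed level was 5.65 CPM in control 1, from 13 UMIs in 178 cells, and 0.194 CPM in the mutant, from 2 UMIs in 848 cells. In control 2 no Hox UMI was found in 140 such cells, which allows up to 2.14% of cells with a UMI. This limit lies above the share in all mesenchymal-like cells of control 2. With 2 UMIs in the mutant, neither of these libraries sets osteogenic-gated cells apart from the mesenchyme. Without the osteogenic cells, the mesenchymal-like level was 23.8, 3.66 and 0.659 CPM, close to the values with them.

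**Figure D2:**
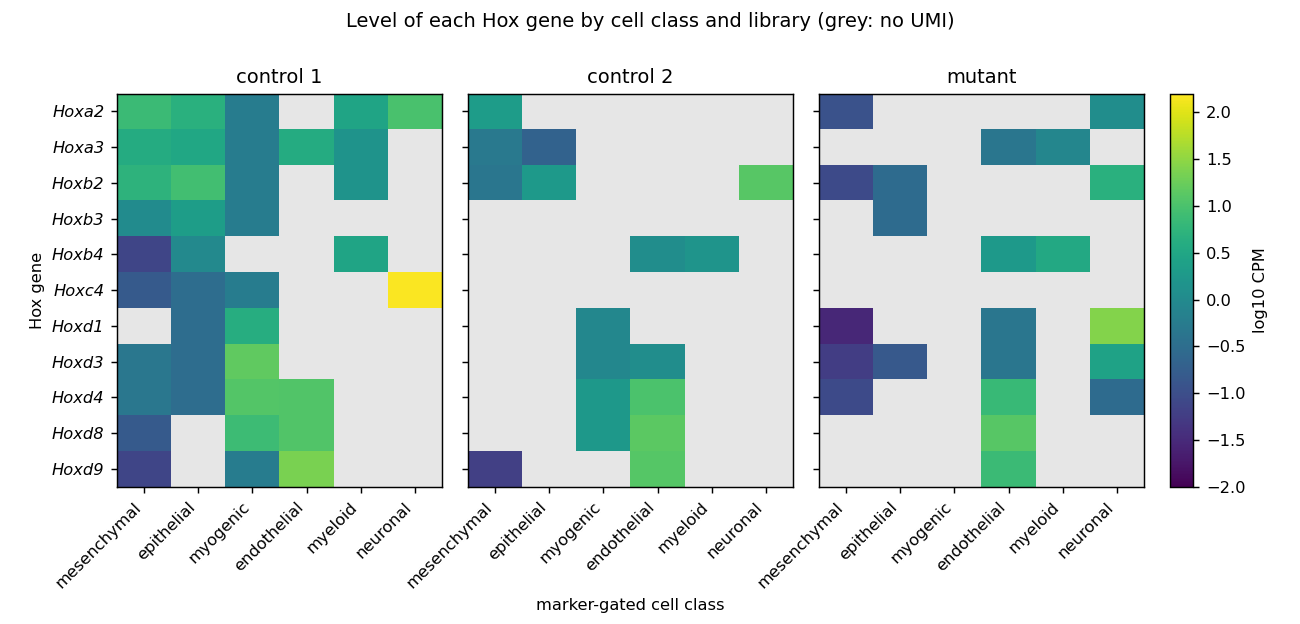
Level of 11 Hox genes with at least 20 UMIs (rows) in 6 marker-gated classes (columns) of control 1, control 2 and the mutant, coloured by log10 CPM, with grey for no UMI. Hoxd4, Hoxd8 and Hoxd9 are coloured in the endothelial column of every library, and the mesenchymal column of control 1 is brightest for Hoxa2, Hoxb2 and Hoxa3.

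Endothelial-like cells carried Hox UMIs in all 3 libraries, and these came almost wholly from the Hoxd cluster. Their summed Hox level was 56.5 CPM (95% interval 31.6 to 93.3) in control 1, 40.9 CPM (28.6 to 56.6) in control 2 and 30.8 CPM (23.9 to 39.1) in the mutant. These intervals overlapped one another, unlike those of the mesenchyme. The endothelial level was 2.74 times the mesenchymal level in control 1, 12.3 times in control 2 and 59.2 times in the mutant, and the mesenchymal level differed more between the libraries than the endothelial level did. Hoxd genes were 86.7%, 94.4% and 92.6% of the endothelial Hox UMIs. A high Hoxd share was not particular to this class, since it was 93.0% in control 1 myogenic-like cells. There Hoxd4 stood at 11.8 CPM and Hoxd8 at 7.64 CPM.

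Hoxd8, a mid-cluster gene, had 3 UMIs in the 17 endothelial-like cells of control 1, 12 in the 84 of control 2 and 28 in the 241 of the mutant (11.3, 13.6 and 12.7 CPM). In mesenchymal-like cells it had 2, 0 and 0. Hoxd9, its neighbour on the posterior side, had 6, 11 and 16 endothelial UMIs (22.6, 12.5 and 7.25 CPM) and 1, 1 and 0 mesenchymal ones. Hoxd4, on the anterior side of the cluster, had 3, 9 and 15 endothelial UMIs (11.3, 10.2 and 6.80 CPM) against 6, 0 and 3. Every library had each of the 3 genes higher in endothelial-like than in mesenchymal-like cells.

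With library as a block, 3 of the 10 Hox genes tested over the 3 libraries were called higher in endothelial-like than in mesenchymal-like cells. Of all 16731 genes 16.1% were called higher. A gene was tested if it had at least 10 UMIs over both classes. Hoxd8, Hoxd9 and Hoxd4 had 2, 2 and 9 in the mesenchyme and so entered only through their endothelial UMIs. The count of 3 is therefore partly set by this limit. Control 1 had fewer than 20 endothelial-like cells, and this fit used a lower limit of 10 cells, chosen after the counts had been seen. The log2 difference was 8.33 ± 0.73 for Hoxd8 (adjusted p = 1.95e-28), 8.17 ± 0.75 for Hoxd9 (adjusted p = 6.32e-26) and 6.07 ± 0.68 for Hoxd4 (adjusted p = 1.29e-17), all by edgeR. The pooled level of Hoxd8 was 408 times the mesenchymal one, with a counting interval from 106 to 3476 because the mesenchyme held only 2 UMIs. Pooled ratios sum over the libraries, and in control 1 alone the levels of Hoxd8 and Hoxd4 lay closer together. Hoxd8 stood there at 11.3 against 0.153 CPM and Hoxd4 at 11.3 against 0.458 CPM. Over the pooled libraries, Hoxd9 was 313 times (80.1 to 2693) and Hoxd4 56.9 times (26.0 to 138) the mesenchymal level. All 3 stayed called in each of the 10 alternatives run, with adjusted p-values of at most 2.17e-05 for Hoxd9, 1.55e-05 for Hoxd8 and 0.000394 for Hoxd4, control 1 left out included. Hoxa2 had no UMI in 342 endothelial-like cells against 133 in the mesenchyme (adjusted p = 0.0512, edgeR).

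Hoxd9 was detected more often in endothelial-like cells with Hoxd8 than in those without it. In control 2, Hoxd9 was found in 4 of the 9 cells with Hoxd8 and in 2.67% of the 75 cells without it. In the mutant it was found in 7 of 20 cells with Hoxd8 and in 2.26% of the 221 without it. Control 1 had it in 2 of 3 cells with Hoxd8 and in 21.4% of the 14 without it. Cells with a UMI of Hoxd4, Hoxd8 or Hoxd9 were deeper than the others, as given below. The part of depth in this joint detection was not tested. The share of cells with any Hox UMI was 47.1%, 15.5% and 14.52%. Thinned to 2000 UMIs, it was 18.8%, 2.38% and 3.91%. Of the genes outside the protein-coding set, the antisense transcript Hoxd3os1 of the same cluster was also called higher in endothelial-like cells (log2 difference 7.01, adjusted p = 2.81e-19, edgeR), with 22.6, 4.54 and 7.25 CPM. It was 1 of 5 noncoding Hox-cluster genes tested. The TALE cofactors went the other way, with 0 of 9 called higher and 6 called lower, beside 16.2% of all genes called lower, among them Meis2 (−2.37, adjusted p = 1.12e-61, edgeR). Their median log2 difference was −2.13, beside −0.16 over all genes tested.

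Endothelial cells with a UMI of Hoxd4, Hoxd8 or Hoxd9 were then described by vessel genes, in lists chosen after the Hox values had been seen and without a test. Control 1 had 7 such cells, control 2 had 12 and the mutant 30, against 10, 72 and 211 without. The lymphatic list (Prox1, Lyve1, Flt4, Mmrn1 and Reln) summed to 682 CPM with and 135 CPM without a Hoxd UMI in control 1. In control 2 it summed to 914 and 177 CPM, and in the mutant to 678 and 114 CPM. The Hoxd-positive cells had the higher lymphatic level in each library, with counting intervals that did not overlap. The arterial list (Gja5, Gja4, Efnb2, Sox17 and Hey1) differed less, at 361 and 228 CPM in control 1, 484 and 259.9 in control 2 and 765 and 562 in the mutant. The venous list (Nr2f2, Ephb4, Aplnr and Nrp2) stood at 834 and 619, 1096 and 849.6, and 832 and 575 CPM. All 3 lists were higher in Hoxd-positive cells, the lymphatic list by the widest ratio in each library.

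Prox1, the factor that specifies lymphatic endothelium, stood at 176 CPM with and 14.2 CPM without a Hoxd UMI in control 1, at 238 and 29.2 in control 2, and at 242 and 21.9 in the mutant. Reln, made by collecting lymphatics, stood at 48.1 and 0 CPM, 90.7 and 6.50 CPM, and 93.3 and 5.62 CPM. Nrp2, a receptor shared by veins and lymphatics, stood at 641 and 164, 808 and 197, and 578 and 197 CPM. Aplnr, a marker of veins and sprouting capillaries, had the opposite order, with 0 and 327, 18.9 and 390, and 58.3 and 206 CPM. Nrp2 and Aplnr, both of the venous list, thus went opposite ways in every library. The Hoxd-positive cells were deeper, with median depths of 14499, 18724.5 and 14995.5 UMIs against 9485.5, 6182 and 6049, and the part of depth in these levels was not tested.

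**Figure D3:**
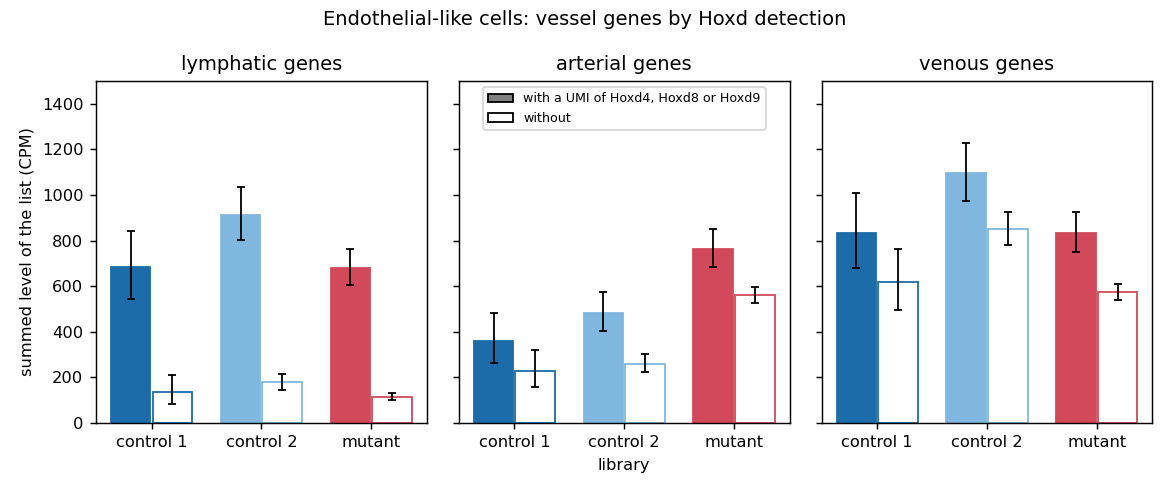
Summed level (CPM) of the lymphatic, arterial and venous gene lists in endothelial-like cells with (filled bars) and without (open bars) a UMI of Hoxd4, Hoxd8 or Hoxd9, by library, with exact Poisson 95% intervals. Lymphatic genes lie between 678 and 914 CPM in the cells with such a UMI and between 114 and 177 CPM in those without.

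Epithelial-like cells of the oral and nasal surface, like the mesenchyme, had their highest Hox level in control 1. Their summed level there was 22.6 CPM, from 72 UMIs in 183 cells. It was 2.73 CPM in control 2, from 13 UMIs in 310 cells, and 1.61 CPM in the mutant, from 11 UMIs in 459 cells. Unlike in the mesenchyme, the counting intervals of control 2 and the mutant overlapped. The ratio to the mesenchyme of the same library was 1.10 (95% interval 0.833 to 1.43), 0.822 (0.411 to 1.53) and 3.09 (1.32 to 6.91). Only the mutant ratio had an interval above 1. In the controls the leading gene was Hoxb2 and not, as in the mesenchyme, Hoxa2, and in the mutant it was Hoxc13. Hoxb2 had 27, 9 and 2 UMIs (8.47, 1.89 and 0.293 CPM), whereas Hoxa2 had 15, 0 and 0, so that the ratio of Hoxa2 to Hoxb2 UMIs was 0.556 in control 1 epithelium and 1.39 in control 1 mesenchyme. None of the 8 Hox genes tested was called higher in epithelial-like cells, beside 13.5% of all 17185 genes, 1 passed unadjusted and DESeq2 called 0. Hoxb2 had a log2 difference of 1.05 ± 0.43 (adjusted p = 0.113, edgeR) and was higher in 3 of 3 libraries.

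Hoxc13, a gene of the posterior end of its cluster that is known from hair and from tongue and nail epithelium, was found in 2, 1 and 4 epithelial-like cells of control 1, control 2 and the mutant, with 1 UMI in each. Of its 8 UMIs in kept cells, 7 lay in epithelial-like cells and the other was in a mesenchymal-like cell of control 2. It made up 4 of the 11 epithelial Hox UMIs of the mutant. Its total was under the limit of 10 UMIs for the test.

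Myogenic-like cells carried Hoxd genes in control 1, few in control 2 and none in the mutant. The summed level was 41.7 CPM (71 UMIs in 100 cells) in control 1 and 5.23 CPM (6 UMIs in 114 cells) in control 2. In the mutant no Hox UMI was found in 96 cells, which allows up to 3.13% of cells with a UMI and a level of 3.88 CPM. Hoxd3 had 25 and 1 UMIs in the controls (14.7 and 0.871 CPM), Hoxd4 had 20 and 2 (11.8 and 1.74 CPM), Hoxd8 had 13 and 2 (7.64 and 1.74 CPM) and Hoxd1 had 7 and 1. In control 1, 93.0% of the myogenic Hox UMIs were from the Hoxd cluster. Hoxd4 was found in 56.3% of the 16 cells with Hoxd3 and 8.33% of the 84 without, a pair that shares exons.

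Against mesenchymal-like cells, 3 of the 9 Hox genes tested were called higher in myogenic-like cells, beside 15.0% of all 16688 genes. They were Hoxd8 (log2 difference 5.94 ± 1.17, adjusted p = 3.10e-06), Hoxd3 (4.97 ± 0.95, adjusted p = 1.39e-06) and Hoxd4 (4.75 ± 0.93, adjusted p = 2.71e-06), all by edgeR, and each was higher in the 2 controls only. Without control 1 the count was 0, because Hoxd3, Hoxd4 and Hoxd8 then had too few UMIs to be tested. With all libraries they had 8, 9 and 2 mesenchymal UMIs and entered the test only through their myogenic ones. Noncoding genes of the Hoxd cluster were called as well, namely Haglr (4.35, adjusted p = 0.00108, edgeR), which starts next to Hoxd1, and Hoxd3os1 (3.90, adjusted p = 0.00769, edgeR). They were 2 of 6 tested. Haglr had 9, 1 and 0 UMIs and Hoxd3os1 had 5, 2 and 0, the same order of libraries as the Hoxd genes.

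The 29 myogenic-like cells of control 1 with a UMI of Hoxd3, Hoxd4 or Hoxd8 were described beside the 71 without, again by lists chosen after the Hox values had been seen and with no test. Head muscle genes (Tbx1, Tcf21 and Msc) stood at 253 CPM with and 166 CPM without. Of the genes of migrating limb and tongue muscle precursors, Pax3 and Lbx1 had 0 UMIs with a Hoxd UMI, against 2 and 4 UMIs without, and Met stood at 21.2 and 13.2 CPM. The muscle stage genes Pax7, Myf5, Myod1, Myog and Myh3 summed to 1903 and 1843 CPM. The Hoxd-positive muscle cells of this library were thus low in Pax3 and Lbx1, as were the others, and their median depth was 17327 against 16329.

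Neuronal-like cells had the highest summed Hox levels of the classes named here in control 1, yet the gene that gave the level was a different one in each library. The level was 167 CPM in control 1 (17 UMIs in 12 cells), 19.3 CPM in control 2 (3 UMIs in 14 cells) and 35.6 CPM in the mutant (123 UMIs in 358 cells). In control 1, Hoxc4 gave 15 of the 17 UMIs and was found in 10 of the 12 cells. In control 2, Hoxb2 gave 2 UMIs and Hoxb1 1. In the mutant, Hoxd1 gave 92 UMIs in 44 cells (12.3% of 358), Hoxb2 16, Hoxd3 9 and Hoxa2 4. No Hoxd1 UMI was found in the 12 and 14 neuronal-like cells of the controls, and these counts of 0 allow shares of up to 25.0% and 21.4%.

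With the lower limit of 10 cells, 4 of the 10 Hox genes tested were called higher in neuronal-like than in mesenchymal-like cells, beside 14.47% of all 16845 genes. Hoxc4 had a log2 difference of 9.13 ± 0.64 (adjusted p = 6.02e-28, edgeR) and was higher in 1 of 3 libraries. Hoxd1 had 8.96 ± 1.09 (adjusted p = 5.78e-15, edgeR) and was also higher in 1 of 3, as was Hoxd3 with 4.39 ± 0.63 (adjusted p = 8.05e-07, edgeR). Hoxb2 had 3.59 ± 0.73 (adjusted p = 7.97e-06, edgeR) and was higher in 2 of 3. Each of these calls rests largely on 1 library: DESeq2 called Hoxb2 alone, and without the mutant Hoxc4 alone was called. Hoxc4, Hoxd1 and Hoxd3 had 2, 1 and 8 mesenchymal UMIs and entered the test only through their neuronal ones. The noncoding genes Haglr, Hoxb3os and Hotairm1, 3 of 5 tested, were called higher, Haglr with 23 UMIs in the mutant and 0 in each control.

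Mutant neurons with Hoxd1, a gene known from pain-sensing neurons of the sensory ganglia, were set beside those without, with no test and with lists chosen after the Hox values had been seen. Sensory neuron genes (Pou4f1, Isl1, Tlx3 and Prrxl1) summed to 1301 CPM in the 44 cells with Hoxd1 and 298 CPM in the 314 without. Nociceptor genes (Calca, Scn10a, Runx1 and Prdm12) stood at 189 and 79.3 CPM. Genes of visceral and autonomic neurons (Phox2a, Hand2 and Th) had the opposite order as a sum, 94.0 and 315 CPM. Within that list Th, the enzyme that starts catecholamine synthesis, went against the sum, with 74.1 CPM in cells with Hoxd1 and 18.9 CPM in the others. Pou4f1, which marks sensory neurons, was found in 90.9% of the Hoxd1-positive cells and in 15.9% of the others, and Phox2a, a factor of visceral neurons, in 6.82% and 64.6%. Median depth was 15230 UMIs with Hoxd1 and 6867 without.

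Hoxb2 and Hoxd1 were not detected in the same mutant neuron. A UMI of Hoxb2 was found in 0 of the 44 cells with Hoxd1 and in 16 of the 314 without (5.10%). The count of 0 allows 3 of the 44 cells under the limit used here, a share no lower than that. Whether the 2 genes avoid each other was not tested. In these 16 cells the sensory genes summed to 105 CPM, against 524 CPM in the 342 cells without Hoxb2. The visceral and autonomic genes were close to each other, at 288 and 269 CPM, with overlapping counting intervals. Phox2a was found in 81.3% of the Hoxb2-positive cells and in 56.4% of the others. Hoxd3 followed Hoxd1, with a UMI in 13.6% of the cells with Hoxd1 and in 0.637% of those without. The 12 neurons of control 1, 10 of them with Hoxc4, had Phox2a at 923 CPM, Hand2 at 245 CPM and Isl1 at 874 CPM, and Pou4f1 at 0. The 14 neurons of control 2 had no UMI of the sensory list and 483 CPM of the visceral list.

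The remaining classes had 18 or fewer Hox UMIs each over the 3 libraries, although the level was high in the few mural-like cells of control 1. Myeloid-like cells had 7, 1 and 5 UMIs in 49, 105 and 164 cells (9.96, 1.47 and 4.27 CPM), and their most frequent gene was Hoxb4, a gene known from blood stem cells, with 2, 1 and 4 UMIs. None of 6 Hox genes tested was called higher, beside 13.4% of all genes, 0 passed unadjusted and DESeq2 called 0. Hoxb4 was too sparse for this test, and it was called when all genes with at least 1 UMI entered and when a cell needed at least 4 markers. Mural-like cells, the contractile cells around vessels, had 18 UMIs in the 15 cells of control 1 (85.4 CPM), 6 of them Hoxb2, and none in 6 cells of control 2 or 46 of the mutant. The mutant count of 0 allows up to 6.52% of cells and 5.42 CPM, below the control 1 level.

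Glial-like cells had 3, 0 and 2 Hox UMIs in 11, 32 and 177 cells (25.1, 0 and 1.28 CPM). None of 6 genes tested was called higher, beside 3.12% of all genes, with 0 passing unadjusted and 0 called by DESeq2. Chondrocyte-like cells, 177 in all, had 1 Hox UMI, in the mutant. Erythroid-like cells had none in 29 cells, which allows up to 10.3% of cells. The pooled level of cartilage cells, 0.527 CPM, rested on 1 UMI over the 3 libraries, too few for a comparison with the mesenchyme.

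To see what else marked Hox-positive mesenchyme, mesenchymal-like cells with at least 1 Hox UMI (180, 41 and 12 cells) were compared with those without (1248, 2465 and 4787). Beyond the 39 Hox genes, 133 genes were called higher, 4 of them noncoding genes of the Hox clusters, and 58 lower. The share called higher was 0.805% of 16521 genes and the share called lower 0.351%. The count was 59 without control 1, 67 without control 2 and 144 without the mutant, DESeq2 called 31, and 4 were called without library as a block. A planned split at 2 or more Hox UMIs left 56, 8 and 4 cells and was not tested, so that the split at 1 UMI took its place, with the limit of 10 cells chosen after the counts had been seen. In the 12 mutant cells, 1 UMI is worth 8.17 CPM. The epithelial markers of these 12 cells summed to 449 CPM against 27.9 CPM in the other mutant mesenchymal-like cells, whereas in the controls the sums were 41.3 and 42.7 CPM and 28.0 and 42.3 CPM, and their part in the result was not tested.

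Among the called genes that rose in every library and met the naming rule, Tbx1, a T-box factor of the pharyngeal arches, had the largest rise, with 27.9, 32.0 and 24.5 CPM in Hox-positive cells against 6.68, 4.02 and 2.79 CPM in the others (log2 difference 2.38 ± 0.45, adjusted p = 2.83e-05, edgeR). The matrix genes Mfap5 and Eln rose by 2.25 and 1.62 on the log2 scale. Eln, which encodes elastin, stood at 414, 1028 and 163 CPM against 167, 130 and 148 CPM (adjusted p = 5.10e-31, edgeR), with the mutant values close to each other. Lpl, lipoprotein lipase, stood at 56.4, 184 and 24.5 CPM against 21.3, 17.4 and 17.1 CPM (1.98 ± 0.23, adjusted p = 3.69e-15, edgeR). Grem1, a secreted BMP antagonist, stood at 39.5, 260.1 and 40.8 CPM against 22.7, 47.7 and 19.1 CPM (1.46 ± 0.21, adjusted p = 7.91e-10, edgeR). The other named genes that rose were Ptx3, Rarres2, Olfml2b, Ntrk3, Smim1, Nell2 and Akap12, with log2 differences from 1.49 to 2.19. Ntrk3 and Mfap5 rested on 1 UMI each in the mutant. Without control 1, Tbx1 and Mfap5 were no longer called, at log2 differences of 2.86 and 1.60.

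Of the 5 genes that fell most, Ibsp, bone sialoprotein, stood at 31.4, 0 and 0 CPM in Hox-positive cells against 86.9, 32.8 and 205 CPM (log2 difference −2.02 ± 0.22, adjusted p = 3.91e-17, edgeR). Smpd3, a sphingomyelinase needed for mineralization, fell by 2.12, Ifitm5, an osteoblast membrane gene, by 2.26, and the matrix gene Tnn by 1.83 on the log2 scale. The unnamed transcript Gm44096 fell by 4.44. All 17 named genes kept their sign in each of the 8 alternatives fitted. The naming rule had taken only genes with the same sign in all 3 libraries, so this was largely fixed beforehand. Of the 12 that rose, 7 were still called without control 1, 7 without control 2, 8 by DESeq2 and 3 without library as a block. Of the 5 that fell, 3, 5, 1 and 0 were still called.

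**Figure D4:**
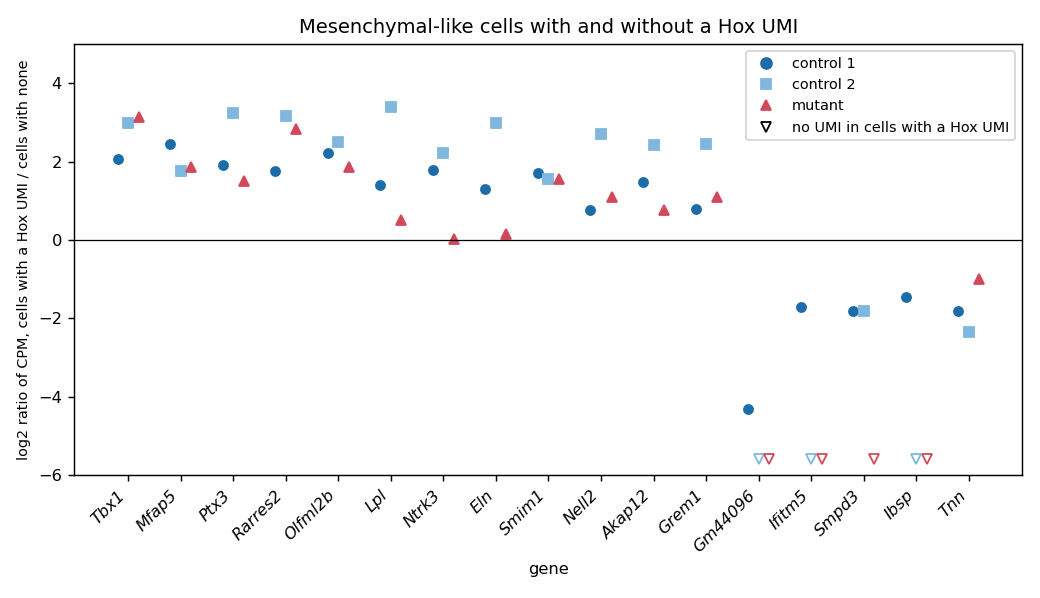
Log2 ratio of CPM in mesenchymal-like cells with a Hox UMI to CPM in those with none, for the 12 genes that rose most and the 5 that fell most, by library; open triangles mark libraries with no UMI in the Hox-positive cells. The naming rule took only genes with the same sign in all 3 libraries, and the mutant points of Ntrk3 and Eln lie close to 0.

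The Hox cofactors were compared in the same cells. Meis1 stood at 159, 212 and 49.0 CPM in Hox-positive cells against 93.1, 47.7 and 24.5 CPM (log2 difference 1.17, adjusted p = 1.64e-09, edgeR). It was 1 of 2 genes called higher among the 9 TALE genes, and the list's median was 0.08 beside −0.06 over all genes. Of the 16521 genes tested beyond the Hox genes, 0.805% were called higher and 0.351% lower. Of the 20 homeobox genes of the cranial mesenchyme outside the Hox clusters, 0 were called higher and 2 lower: Dlx2 (24.4, 24.01 and 49.0 CPM against 55.8, 37.0 and 37.96 CPM, −0.97, adjusted p = 0.0161, edgeR) and Msx2 (8.14, 12.01 and 16.3 CPM against 26.8, 7.91 and 23.8 CPM, −1.37, adjusted p = 0.0422, edgeR). Both were lower in 2 of the 3 libraries only. That list had a median of −0.53. All 4 noncoding Hox-cluster genes tested were called higher, Hoxaas3 by 4.34, Hoxb3os by 3.18, Hoxaas2 by 3.15 and Hotairm1 by 2.36 on the log2 scale, and none of the 4 had a UMI in the Hox-positive cells of the mutant. No gene was called among 7 upstream regulators tested (retinoic acid receptors and Egr2 among them), 16 Polycomb genes and 3 posterior palate genes, of which Meox2 had a log2 difference of −0.51 (adjusted p = 0.0539, edgeR).

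The genotypes are set side by side without a test. In mesenchymal-like cells the mutant lay 3.99 below the mean of the controls on the log2 scale, with a gap of 2.63 between the controls themselves. In endothelial-like cells it lay 0.64 below, with a gap of 0.47. Among the endothelial Hoxd genes, Hoxd8 differed by 0.03 with a gap of 0.27, Hoxd4 by −0.66 with a gap of 0.15 and Hoxd9 by −1.21 with a gap of 0.86. The fold between the controls was 6.19 in the mesenchyme, 8.26 in the epithelium, 7.99 in muscle and 8.63 in neurons, but 1.38 in endothelium. The distance between the controls was thus narrower in endothelium than in these other classes. Genotype and library cannot be told apart with 1 mutant library.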

How the data were processed

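Soft palates at E14.5 were dissociated with TrypLE, and single cells were captured with the 10x Genomics 3′ v2 kit in 2 control libraries and 1 mutant library. The values deposited by the authors are raw UMI counts of genes in barcodes from Cell Ranger 4.0.0 (the version in the matrix headers and the methods; the submitters' processing notes list Cell Ranger 3.1.0 and mm10), 1 matrix a library and with no normalization. The authors combined the controls with cellranger aggr for the paper; the libraries were used separately here. Which control genotype or embryo each library holds is not given in the sources used here.

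From these counts, cells of 500 or more genes and up to 10% mitochondrial UMIs were gated by marker lists and summed per class and library. A barcode that passed more than 1 gate was left out as mixed, except that granulocytic took precedence over myeloid. Class sums were compared within libraries by edgeR 4.0.16 in R 4.3.3 (TMM, quasi-likelihood test, library as a block because both sums of a library come from 1 suspension), with Benjamini-Hochberg adjustment over all genes with at least 10 UMIs, and called at an adjusted p under 0.05. A class needed 20 cells in each library; endothelial, neuronal and glial cells and the Hox-positive mesenchyme were fitted with 10, chosen after the data were seen. With libraries not shown to be separate animals, p-values cannot stand for a spread between animals and cover at most these 3 libraries. A small p-value also does not mean that the libraries were alike. Hoxc4 in neuronal-like cells had 15, 0 and 0 UMIs and an adjusted p of 6.02e-28 (edgeR). DESeq2 1.42.0 was an alternative. Intervals are exact Poisson (CPM) or Clopper-Pearson (shares) at 95%, and a count of 0 was given the limit of 3 counts. Thinned shares used 2000 UMIs a cell and left out shallower cells. Sums and intervals used scipy 1.17.1, pandas 2.3.3 and numpy 2.4.6 under Python 3.11.15, and the scripts were tested on simulated data. Scrublet in scanpy 1.11.5 marked 0, 0 and 1 barcodes by its own threshold and was taken not to have worked; leaving out its highest scores at a preset rate (63, 132 and 604 barcodes) was an alternative. Other alternatives changed the gates, the filters, the summing and the libraries used.

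The members and lists were chosen with earlier results of these data known. Genes with at least 20 UMIs are described one by one, except for 1 that is not reported here; some genes of the other lists are likewise not reported. Genes named for Hox-positive mesenchyme are the 12 that rose most and the 5 that fell most among called genes with at least 50 UMIs in the higher class and the same sign in all 3 libraries, Hox-cluster genes and gate markers left out; 68 and 44 genes met this rule. Names were matched by gene identifier to GENCODE M21 of GRCm38, and upstream windows are from RefSeq of GRCm38.p6.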

Additional observations from a re-analysis of the deposited data

Results flagged for a closer look

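The differences of 3 genes between classes went one way in the mutant and the other way in both controls, and the contrast between libraries was not tested. Hoxd3 in myogenic-like minus mesenchymal-like cells was −0.0578 CPM in the mutant, 14.2 CPM in control 1 and 0.871 CPM in control 2. Hoxd4 gave −0.0868, 11.3 and 1.74 CPM in the same order. Hoxa2 in perimysial-gated minus other mesenchymal-like cells gave −0.124, 13.1 and 0.622 CPM. In each case the mutant had no UMI in the smaller class, which fixed the sign of its difference. The count of 0 in myogenic-like cells allows 3.88 CPM, and Hoxd3 in control 2 rests on 1 UMI. The opposite signs therefore cannot be read as a difference between the libraries.

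Hox UMIs also lay in barcodes that no comparison used. Barcodes that passed no gate held 39 (control 1), 19 (control 2) and 7 (mutant), and barcodes that passed more than 1 gate held 42, 5 and 40. Of the mixed barcodes of the mutant, 82.5% of the Hox UMIs were from the Hoxd cluster. The barcodes left out by the filters on genes and mitochondrial UMIs held 4 (control 1), 0 (control 2) and 2 (mutant) Hox UMIs.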

How the results depend on the processing

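Of 120 recomputed summary values 105 stayed within their limits and 15 moved, and of 126 recomputed differences of single genes 113 kept direction and call. With all genes of at least 1 UMI tested, 5 of 18 Hox genes were called higher in endothelial-like cells, beside 2299 of all 21717 genes. The added genes were Hoxd10 (1, 1 and 2 endothelial UMIs by library) and Hoxb4 (0, 1 and 4). In myeloid-like cells 1 of 17 was called, beside 2354 of 21805 genes. A gate of 4 markers also gave 1 there, of 9 tested, beside 2522 of 17045 genes. DESeq2 called 1 Hox gene in neuronal-like cells and 31 genes in Hox-positive mesenchyme. Leaving out 1 library at a time gave 0 to 3 Hox genes in myogenic-like cells, 1 to 4 in neuronal-like cells, 0 to 1 in perimysial-gated cells and 59 to 144 genes in Hox-positive mesenchyme. Without control 1 the Hoxb2 difference of perimysial-gated cells was −4.28 ± 6.76, and without control 2 it was 1.37 ± 0.57. Perimysial-gated cells of control 2 and the mutant had no Hoxb2 UMI, so the value without control 1 does not give a direction. The cause of these moves was not tested beyond the smaller counts.

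The library block changed further calls. Without it 4 genes were called in Hox-positive mesenchyme and 3 Hox genes in neuronal-like cells, and the lower Hoxa2 of myogenic-like cells (−3.11) and the higher Hoxb2 of neuronal-like cells (1.44) were no longer called. It changed no other call of a described Hox gene.

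The mean over cells gave 4.40 CPM in the mesenchyme of control 2. Thinned cells gave the shares of 3.60%, 0.712% and 0.108%. The mean mesenchymal Hox level of the libraries, 8.15 CPM, was 1.92 without control 1, 10.6 without control 2 and 11.96 without the mutant. With a gate of 2 markers the glial-like and the Hox-positive fits, and without high Scrublet scores the Hox-positive fit, had under 10 cells in a library and were not run. Most Hox genes rest on fewer than 100 UMIs, so that levels near 1 UMI a class cannot be ordered.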
